A study of Mus musculus with 91 samples.

Results

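Splenic regulatory T cells (Tregs) of mice given a fusion protein of mouse IL-2 and the receptor chain CD25 (FP) were compared with Tregs of mice given PBS, both taken 16 h after the injection. The comparison was made of 8 of the 91 samples of the series, picked by the time and treatment in their labels: 4 FP libraries and 4 PBS libraries. A further 4 libraries from mice given IL-2 at 16 h, and the FP and PBS libraries taken at 1.5 h and at 72 h, served for comparison. All animals were C57/BL6 mice carrying an RFP-Foxp3 reporter, in which red fluorescence marks cells that express Foxp3, and Tregs were sorted from the spleen. FP animals had received 20 µg of FP and PBS animals 100 µL of PBS. The dose of IL-2 and the age of the animals are not given in the sources used here, and the treatment text names 1.5 h for every sample, so the time was taken from the sample titles. The labels do not say whether each library came from a separate animal, so p-values measure the spread between these libraries, which may be in part technical. The Foxp3 reporter and the sort define the cells, so that a change in which cells carried the reporter and a change within the cells cannot be told apart.

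Tregs are the CD4 T cells that restrain other immune cells. They make little IL-2 themselves and depend on IL-2 from other T cells, which they capture with a receptor of 3 chains: CD25 (Il2ra), CD122 (Il2rb) and the common gamma chain (Il2rg). The receptor works through the kinases JAK1 and JAK3 and the transcription factor STAT5, which switches on CD25 itself, the inhibitors CIS and SOCS that dampen the signal, and genes of growth and survival. A resting lymphocyte that re-enters the cell cycle first builds ribosomes and nucleotides, then releases E2F factors from pocket proteins, loads MCM helicases onto origins, copies its DNA together with new histones, and finally makes the proteins of mitosis.

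Total RNA, depleted of ribosomal RNA, was sequenced, so that transcripts with and without a poly(A) tail were counted. The 8 libraries held 15149790 to 17575151 reads in genes, and 17453 of the 18312 genes in the table had enough counts to be tested. Levels are CPM, the counts of a gene scaled to the library total, with the library totals adjusted by the trimmed mean of M values (TMM). A gene was called when its Benjamini-Hochberg adjusted p in edgeR's quasi-likelihood test was below 0.01, and standard errors (SE) belong to log2 changes of FP minus PBS. No library pair was a duplicate. The first principal component, with 52.3% of the variance, held the 4 FP libraries apart from the PBS libraries. Some libraries stood apart within their group: 99 genes in FP library 1 and 79 in PBS library 3 were over 2-fold from the mean of the others of their group, against 4 to 53 in the other 6. Markers of the other spleen cells that a sort can carry along were present. For the counts of markers called, the shares over all genes tested were 14.4% called higher and 14.3% called lower. B cell markers summed to 178 to 382 CPM in FP libraries and 175 to 277 CPM in PBS libraries, with 0 of 13 called higher and 2 lower, Cd79a and Cr2. Red pulp macrophage markers summed to 607 to 1161 CPM in FP libraries and 916 to 1546 CPM in PBS libraries, with 0 of 11 higher and 1, Mrc1, lower. All 11 log2 changes were below 0, from -1.13 to -0.22 with a median of -0.51. The sum overlapped the PBS range in FP library 1 only, and the other FP libraries lay below every PBS library. Myeloid markers summed to 172 to 349 CPM in FP libraries and 248 to 372 CPM in PBS libraries, with 0 of 8 higher and 2 lower, Lyz2 and Tyrobp, calls that were both lost without FP library 2 or 4 or PBS library 3, and FP library 1 held the highest sum of its group. All 8 log2 changes were below 0, from -1.14 to -0.10 with a median of -0.60. Markers of CD8 T and NK cells summed to 27.2 to 29.3 CPM in FP libraries and 24.3 to 29.1 CPM in PBS libraries, with 1 of 6 higher, Nkg7, and 1 lower, Klrb1c. Erythroid and platelet markers summed to 14.5 to 23.0 CPM in FP libraries and 16.7 to 29.8 CPM in PBS libraries, with 0 of 6 higher and 1, Itga2b, lower. At an unadjusted p under 0.05, edgeR's test gave 1 B cell marker higher and 0 of the myeloid, red pulp macrophage, erythroid and platelet and T cell markers. Of 3 plasma cell markers 1 was called higher and 0 lower. The Itga2b call was lost without FP library 2, 3 or 4 or PBS library 1 or 4. The part of these cells in the results was not tested. In such bulk libraries, fewer cells of a type and less RNA per cell cannot be told apart. Of the cells sorted for, the 7 Treg markers summed to 4840 to 5192 CPM in FP libraries and 2666 to 2969 CPM in PBS libraries, and 10 general T cell markers to 2896 to 3023 CPM in FP libraries and 3198 to 4375 CPM in PBS libraries, with 0 of 10 called higher and 4 lower.

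At 16 h FP changed Treg RNA broadly, and about as often up as down. Of the genes tested, 2519 were called higher (14.4%) and 2503 lower (14.3%), and these shares are the background for every count of genes below. Most changes were modest: 2118 of the called genes moved by less than 1.5-fold, and 1202 by at least 2-fold, 640 of them higher and 562 lower. The large changes leaned upward, with 186 genes at least 4-fold higher and 54 at least 4-fold lower. The 2519 genes called higher made up 22.4% to 24.2% of all CPM in FP libraries and 14.2% to 15.8% in PBS libraries, while the genes called lower made up 16.4% to 17.1% in FP libraries and 25.0% to 26.2% in PBS libraries. With FP library 1 and PBS library 3 both left out, 2898 genes were called higher and 2368 lower. The kinds of gene differed by direction: of 12540 protein-coding genes 2301 rose (18.3%) and 1964 fell (15.7%), whereas of 555 lincRNA genes 24 rose (4.32%) and 124 fell (22.3%), and of 947 antisense genes 33 rose (3.48%) and 111 fell (11.7%).

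**Figure D1:**
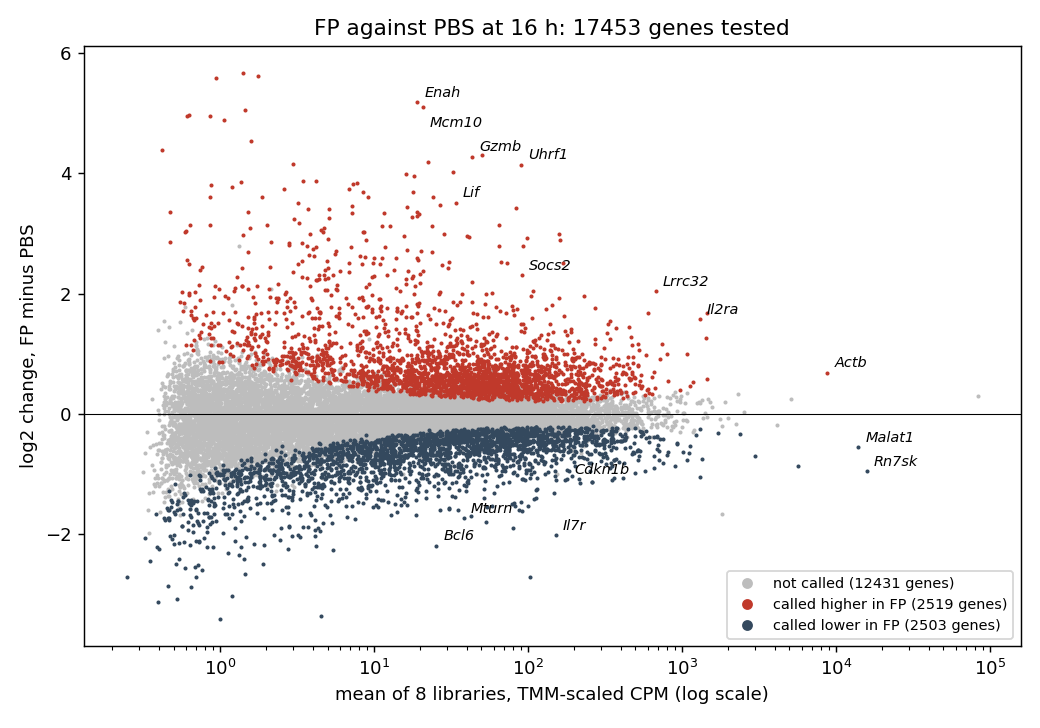
Change of each of the 17453 genes tested, FP against PBS at 16 h. The horizontal axis is the mean of the 8 libraries in TMM-scaled CPM on a log scale, the vertical axis the log2 change of FP minus PBS, and each point is a gene, red where called higher in FP (2519), blue where called lower (2503) and grey where not called (12431). Increases above 4-fold are more common than decreases of that size, and Enah and Mcm10 lie above 5 on the log2 scale.

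Within the IL-2 receptor, CD25 and CD122 rose, the gamma chain did not pass the test, and 3 of the kinase and STAT genes below them were called lower. Il2ra (ENSMUSG00000026770, GRCm38 chromosome 2, 11642807 to 11693193) had 1828, 2007, 2019.5 and 1965 CPM in FP libraries, against 646, 656, 715 and 613 CPM in PBS libraries. Every FP library lay far above every PBS library, and the change was 1.57 on the log2 scale (SE 0.073, adjusted p = 7.3e-11). Il2rb, the chain that carries most of the signal, had 2099, 2114, 2332 and 2303 CPM in FP libraries, against 748, 698, 821 and 502 CPM in PBS libraries. The groups did not overlap, and the change was 1.68 (SE 0.12, adjusted p = 2.5e-08). Il2rg, which other cytokine receptors share, had 267, 228, 239.5 and 249 CPM in FP libraries, against 213, 262, 313 and 211 CPM in PBS libraries, values that overlapped (log2 change -0.02, SE 0.10, adjusted p = 0.89). Per kilobase of exon, the levels of the 3 chains were 342 (Il2ra), 516 (Il2rb) and 103 CPM (Il2rg) in FP libraries, against 115, 161 and 105 CPM for the same chains in PBS libraries. By these means Il2rg was the lowest of the 3 in both, by a wider margin in FP Tregs. In PBS libraries it was close to Il2ra, with 105 against 115 CPM, and the order there was not tested.

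Downstream of the receptor, 3 of the 9 receptor and JAK-STAT genes were called lower. Jak1 averaged 651 ± 17.9 CPM in FP libraries and 869 ± 64.0 CPM in PBS libraries (SD, n = 4 each; log2 change -0.42, adjusted p = 0.00013). Stat5b averaged 197 ± 10.3 CPM in FP libraries and 282 ± 17.2 CPM in PBS libraries (log2 change -0.51, adjusted p = 1.2e-05). Stat5a, its close relative, had a log2 change of -0.19 with an adjusted p of 0.069, and was called without PBS library 4 (log2 change -0.26). Jak3, the partner of the gamma chain, had a log2 change of -0.32 (adjusted p = 0.0074). That call was lost when any 1 library other than PBS library 4 was left out, with log2 changes of -0.32 to -0.25. It was also lost with RLE scaling, no filter, DESeq2 and the compared groups alone.

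Most genes listed as STAT5 targets and feedback inhibitors rose: 18 of 24 were called higher and 2 lower. Their median log2 change was 1.04, against -0.05 over all genes tested. The list was drawn up with earlier results of these data known, so its counts here and below are no independent test of STAT5 activity. Cish, which encodes the STAT5-induced inhibitor CIS, had 509, 547, 544 and 583 CPM in FP libraries, against 206, 199, 243 and 162 CPM in PBS libraries, with no overlap (log2 change 1.43, SE 0.10, adjusted p = 1.1e-08). The SOCS genes, inhibitors of cytokine receptors, rose in unequal steps. Socs2 averaged 152 ± 11.5 CPM in FP libraries and 30.6 ± 2.43 CPM in PBS libraries (log2 change 2.31, adjusted p = 1.8e-11). Socs1 averaged 159.7 ± 8.46 CPM in FP libraries and 53.1 ± 8.77 CPM in PBS libraries (1.59, adjusted p = 1.1e-09). Socs3 averaged 276 ± 35.6 CPM in FP libraries and 162 ± 40.1 CPM in PBS libraries (0.77, adjusted p = 0.00016). Among targets that act in growth, Ccnd2 (cyclin D2) reached 2.00-fold, Myc 1.79-fold and the kinase gene Pim1 1.67-fold. Pim2, a sister kinase of Pim1, ran the other way, with 15.2 ± 1.41 CPM in FP libraries and 24.3 ± 4.35 CPM in PBS libraries (log2 change -0.68, adjusted p = 0.00035). Mcl1, which encodes a survival protein, was the other target called lower (log2 change -0.28, adjusted p = 0.0049). Without FP library 1, 3 or 4 or PBS library 3 that call was lost, leaving 1 of 24 lower. RLE scaling, no filter and the compared groups alone lost the Mcl1 call as well.

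The largest changes of the target list were in genes that PBS Tregs barely expressed. Enah (ENSMUSG00000022995, chromosome 1, 181896384 to 182019990), an actin regulator, had 26.8, 31.8, 48.1 and 41.8 CPM in FP libraries, against 1.28, 0.858, 1.20 and 0.699 CPM in PBS libraries. All FP values exceeded all PBS values, by 36.5-fold on average (log2 change 5.19, SE 0.22, adjusted p = 3.7e-11). Gzmb (ENSMUSG00000015437, chromosome 14, 56258838 to 56262260), the cytotoxic protease granzyme B, had 74.6, 78.5, 78.0 and 98.4 CPM in FP libraries, against 3.14, 2.57, 7.86 and 3.24 CPM in PBS libraries. The highest FP value was in library 4 and the highest PBS value in library 3, and the groups were far apart (log2 change 4.28, SE 0.27, adjusted p = 4.1e-09). Lif, a secreted cytokine of the IL-6 family, averaged 62.6 ± 4.85 CPM in FP libraries and 5.46 ± 1.36 CPM in PBS libraries (3.51, adjusted p = 6.1e-11). Hbegf, a membrane-bound growth factor of the EGF family, averaged 21.3 ± 6.62 CPM in FP libraries and 2.08 ± 0.447 CPM in PBS libraries (10.2-fold, adjusted p = 2.6e-08). Drc1, known as a component of motile cilia, was not on the target list and was 9.65-fold higher (adjusted p = 2.1e-09), with FP library 1 and PBS library 3 each the highest of its group.

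STAT5 binds DNA as a dimer, and its motif TTCNNNGAA was searched on both strands of RefSeq promoter windows, each running from 250 bases before to 50 bases after a gene's start on GRCm38.p6. The motif reads the same on both strands. Of the 24 STAT5 targets 19 had a window and 4 of these held the motif (21.1%). The share was 9.55% of all 27025 genes with a window and 8.46% of the 10734 such genes tested. A gene with several windows was counted once, as holding the motif if any of them did. Lists with other courses held it at similar or higher shares, among them resting and quiescence genes (4 of 21, 19.0%), interferon-stimulated genes (9 of 28, 32.1%), TNF receptor genes (6 of 15) and Gimap genes (4 of 8), and the receptor and JAK-STAT list held it in 0 of 7. The windows of Cish and Gzmb, which rose 2.69-fold and 19.5-fold, are printed to show the motif at a feedback inhibitor and at an effector gene. Capitals mark the motif, counted 5′ to 3′ from the RefSeq start. It lies at 1 and 12 bases in Cish (plus strand, chr9:107296409-107296708) and at 38 bases in Gzmb (minus strand, chr14:56262285-56262584). The RefSeq start of Gzmb is outside the gene bounds given above, and its whole window lies upstream of them. A match describes the letters only, and binding was not measured.
Cish: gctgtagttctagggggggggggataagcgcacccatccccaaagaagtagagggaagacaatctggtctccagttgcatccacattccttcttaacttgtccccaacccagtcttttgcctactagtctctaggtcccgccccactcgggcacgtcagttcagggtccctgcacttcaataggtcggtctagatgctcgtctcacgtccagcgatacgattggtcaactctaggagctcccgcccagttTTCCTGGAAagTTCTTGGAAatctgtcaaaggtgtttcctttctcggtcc
Gzmb: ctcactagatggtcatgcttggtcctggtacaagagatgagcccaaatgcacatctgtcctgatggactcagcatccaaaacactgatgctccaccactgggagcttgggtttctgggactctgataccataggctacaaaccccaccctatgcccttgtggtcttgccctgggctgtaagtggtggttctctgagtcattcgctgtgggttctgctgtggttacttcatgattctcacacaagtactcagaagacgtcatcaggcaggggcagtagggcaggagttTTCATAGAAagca

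**Figure D2:**
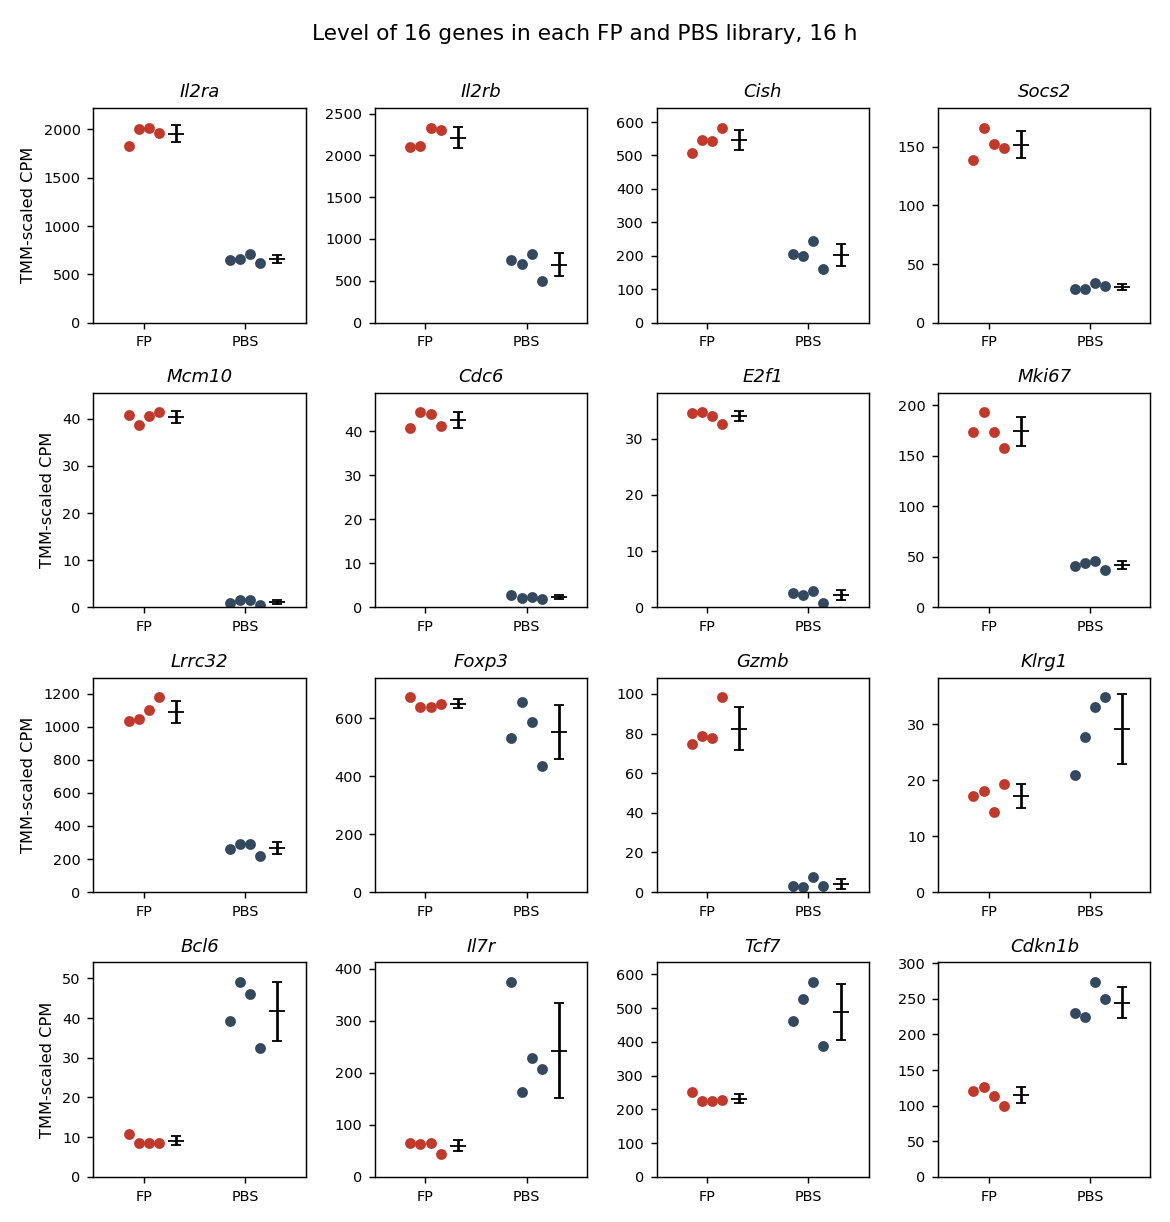
Levels of 16 genes in each library at 16 h, FP (red, left) and PBS (blue, right), in TMM-scaled CPM on axes that start at 0. Points are libraries 1 to 4 from left to right, and the bar beside them is the mean with 1 SD either way. Il2ra lies between 1828 and 2019.5 CPM in FP and between 613 and 715 CPM in PBS, Foxp3 overlaps between the groups, and Bcl6 lies between 8.50 and 10.8 CPM in FP and between 32.4 and 49.1 CPM in PBS.

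Most genes that open the cell cycle rose in FP Tregs. Of 20 activators of the G1 to S transition 16 were called higher and 1 lower, with a median log2 change of 0.97. E2f1, an activating E2F factor, had 34.7, 34.7, 34.0 and 32.7 CPM in FP libraries, against 2.63, 2.27, 2.94 and 0.827 CPM in PBS libraries. The 4 FP values were nearly equal, and the change was 15.6-fold (log2 change 3.96, SE 0.20, adjusted p = 1.8e-10). Cdk6, the kinase that works with cyclin D, averaged 422 ± 29.2 CPM in FP libraries and 125 ± 11.3 CPM in PBS libraries (1.75, adjusted p = 5.3e-11). Mybl2, the factor that joins the E2F and mitotic programmes, was 5.62-fold higher (adjusted p = 4.5e-10). Ccne1 (cyclin E1) changed far less, with 13.4 ± 1.16 CPM in FP libraries and 9.61 ± 1.16 CPM in PBS libraries (0.48, adjusted p = 0.0028), a call lost without FP library 2 (log2 change 0.43) or PBS library 2 (0.42). Tfdp2, a dimer partner of E2F, was the member called lower (-0.37, adjusted p = 0.0046), and the call was lost when FP library 1, 3 or 4 or PBS library 1 or 2 was left out.

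Genes that hold the cycle back moved in both directions. Of 17 CDK inhibitors and pocket protein genes, 8 were called higher and 4 lower. Cdkn1b (p27), which holds T cells in G0, had 121, 126, 114 and 99.6 CPM in FP libraries, against 231, 225, 274 and 249 CPM in PBS libraries, with no overlap (log2 change -1.09, SE 0.083, adjusted p = 3.3e-08). The other 3 members called lower were Cdkn2d, the pocket protein gene Rbl2, known for its place in the repressor complex of resting cells, and Lin37, a subunit of that complex (Cdkn2d and Lin37 were named after their values were seen), with log2 changes of -0.83, -0.57 and -0.36 (adjusted p = 4.5e-05, 1.5e-05 and 0.0091). The Lin37 call was lost when any 1 of the 4 FP libraries or PBS library 2 or 3 was left out. It was also lost with RLE scaling, no filter, DESeq2, the replicate block and the compared groups alone. Among members that rose were repressive E2F factors that act late in S phase: E2f7 averaged 14.6 ± 2.03 CPM in FP libraries and 1.01 ± 0.491 CPM in PBS libraries (3.84, adjusted p = 2.9e-08), and E2f8 averaged 12.8 ± 1.69 CPM in FP libraries and 0.943 ± 0.212 CPM in PBS libraries (3.74, adjusted p = 1.7e-09). The pocket protein gene Rbl1 rose 1.76-fold (adjusted p = 4.3e-08), and Cdkn1a (p21, named after its values were seen) rose 2.59-fold at very low levels, 1.74 ± 0.216 CPM in FP libraries and 0.668 ± 0.363 CPM in PBS libraries (adjusted p = 0.0028). The last call was lost when FP library 1 and PBS library 3 were both left out (log2 change 1.33).

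Replication genes rose with few exceptions. Of 28 genes of origin licensing and firing 25 were called higher and 0 lower, with a median log2 change of 1.80, and the count was 25 whichever library was left out. Mcm10 (ENSMUSG00000026669, chromosome 2, 4989714 to 5012791), which helps to switch on the loaded helicase, had 40.9, 38.7, 40.6 and 41.4 CPM in FP libraries, against 0.961, 1.53, 1.56 and 0.572 CPM in PBS libraries. The FP values lay close together, and the change was 34.5-fold (log2 change 5.11, SE 0.19, adjusted p = 7.4e-12). Cdc6, which loads the MCM helicase onto origins, had 40.9, 44.3, 43.9 and 41.3 CPM in FP libraries, against 2.76, 2.21, 2.46 and 1.84 CPM in PBS libraries, again without overlap (4.20, SE 0.12, adjusted p = 1.8e-12). Subunits of the helicase itself were more abundant in PBS Tregs and rose less: Mcm5 reached 282 ± 12.9 CPM in FP libraries, against 35.5 ± 6.85 CPM in PBS libraries (7.95-fold), and Mcm6 353 to 398 CPM in FP libraries, against 87.2 to 107 CPM in PBS libraries (3.90-fold). The 3 members that were not called, named after their values were seen, all encode subunits of the origin recognition complex: Orc3 (log2 change -0.02), Orc4 (0.12) and Orc5 (-0.27), with adjusted p of 0.92, 0.52 and 0.063.

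At the fork, all 32 genes tested were called higher, with a median log2 change of 1.18 and a range of 0.26 to 3.48. Pole, the catalytic subunit of leading-strand polymerase epsilon, averaged 153 ± 3.91 CPM in FP libraries and 14.3 ± 2.79 CPM in PBS libraries (10.7-fold, adjusted p = 6.1e-12). Chaf1a, which places histones on new DNA, averaged 49.1 ± 1.69 CPM in FP libraries and 4.37 ± 1.20 CPM in PBS libraries (11.2-fold), and Lig1, which joins lagging-strand fragments, had 171 to 181 CPM in FP libraries and 18.4 to 26.0 CPM in PBS libraries (7.56-fold). Of 35 checkpoint and repair genes 27 were called higher and 0 lower, with a median of 1.33. They included the kinase gene Chek1 (log2 change 3.70), its adaptor Clspn (3.61), the exonuclease gene Exo1 (4.00) and the recombination gene Rad54b (3.82), each with an adjusted p of 5.6e-10 or less. Dtl, which directs the destruction of licensing factor Cdt1, averaged 95.9 ± 7.17 CPM in FP libraries and 4.81 ± 0.941 CPM in PBS libraries (log2 change 4.31, adjusted p = 7.4e-12). The enzymes that copy DNA methylation rose with them: Uhrf1, which finds hemimethylated DNA, was 17.7-fold higher, the remodeller gene Hells 8.78-fold and the methyltransferase gene Dnmt1 2.82-fold (adjusted p = 6.1e-12, 1.1e-10 and 2.1e-10).

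E2F sites in the same promoter windows were searched as TTTGGCGC, TTTCCCGC, TTTGCCGC and TTTCGCGC on both strands. Of genes with a window, such a site was in 10 of 21 origin licensing genes (47.6%) and 8 of 28 fork genes (28.6%). It was also in 5 of 26 checkpoint and repair genes (19.2%), 6 of 60 mitosis genes (10.0%) and 5 of 16 G1 to S activators. The share was 2.61% over all genes with a window and 4.56% over those tested. Lists of mixed direction also held it, with 3 of 12 CDK inhibitor and pocket protein genes (25.0%) and 8 of 39 chromatin and DNA methylation genes (20.5%). Resting and quiescence genes held it in 0 of 21. These matches describe letters only, and binding was not measured. Promoter windows of Cdc6 and Mcm5 are printed as examples from the licensing step. Capitals mark the sites, a single one 138 bases before the start of Cdc6 (plus strand, chr11:98907901-98908200) and an overlapping pair that begins 153 and 149 bases before the start of Mcm5 (plus strand, chr8:75109259-75109558).
Cdc6: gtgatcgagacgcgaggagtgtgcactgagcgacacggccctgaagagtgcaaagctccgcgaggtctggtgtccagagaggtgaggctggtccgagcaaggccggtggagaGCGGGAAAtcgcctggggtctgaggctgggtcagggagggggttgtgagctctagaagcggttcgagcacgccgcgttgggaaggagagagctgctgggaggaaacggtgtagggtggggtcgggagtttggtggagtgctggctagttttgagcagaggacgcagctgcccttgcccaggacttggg
Mcm5: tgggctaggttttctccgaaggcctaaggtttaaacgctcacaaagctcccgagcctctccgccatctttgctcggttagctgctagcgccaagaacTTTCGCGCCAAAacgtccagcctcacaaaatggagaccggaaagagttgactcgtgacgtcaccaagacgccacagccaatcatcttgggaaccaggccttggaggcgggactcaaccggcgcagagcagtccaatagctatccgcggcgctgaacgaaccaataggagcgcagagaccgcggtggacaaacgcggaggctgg

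Most genes of mitosis rose too. Of 70 mitosis genes 62 were called higher and 4 lower, with a median log2 change of 1.86. Mki67, which encodes the proliferation marker Ki-67, had 173, 193, 173 and 158 CPM in FP libraries, against 41.1, 44.4, 45.9 and 37.2 CPM in PBS libraries, with no overlap (log2 change 2.05, SE 0.14, adjusted p = 8.3e-09). Kntc1, a kinetochore protein of the spindle checkpoint, was 16.4-fold higher, with 61.5 ± 5.89 CPM in FP libraries and 3.76 ± 0.673 CPM in PBS libraries, and Cit, a kinase of cytokinesis, was 8.68-fold higher. The 4 members called lower included Cenpa, the histone variant of centromeres, which had 22.4, 19.6, 19.5 and 18.4 CPM in FP libraries, against 51.6, 40.1, 44.5 and 41.8 CPM in PBS libraries (-1.15, SE 0.095, adjusted p = 7.1e-08). Every FP library was below every PBS library. Smc4, the condensin subunit, averaged 522 ± 57.2 CPM in FP libraries and 895 ± 192 CPM in PBS libraries (-0.78, adjusted p = 7.0e-05). The other 2, named after their values were seen, were Pttg1 (securin), with 16.2 ± 1.71 CPM in FP libraries and 25.0 ± 4.50 CPM in PBS libraries (-0.62, adjusted p = 0.00043), and the phosphatase gene Cdc25b, with 41.4 ± 3.41 CPM in FP libraries and 62.9 ± 12.8 CPM in PBS libraries (-0.60, adjusted p = 0.0015).

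Replication-dependent histone genes, whose transcripts lack a poly(A) tail and accumulate in S phase, rose in part: 30 of 51 were called higher and 6 lower, with a median log2 change of 1.06. Reads that fit several of these near-identical genes may have been placed on any of them, so single members are uncertain. Hist1h1b averaged 28.1 ± 4.09 CPM in FP libraries and 5.40 ± 1.99 CPM in PBS libraries, with no overlap (2.37, SE 0.23, adjusted p = 5.1e-07). Hist1h3c was 5.63-fold higher (adjusted p = 7.3e-07). The opposite was seen for the linker histone gene Hist1h1c, with 126 ± 11.3 CPM in FP libraries and 259 ± 55.8 CPM in PBS libraries (-1.04, adjusted p = 1.7e-05), and for Hist2h2be (-1.16, adjusted p = 1.1e-05). Without FP library 3 the number of histone genes called lower was 3.

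Most genes that make DNA precursors rose. Of 32 genes of nucleotide synthesis 26 were called higher and 3 lower, with a median log2 change of 0.94, and of 14 genes of one-carbon and serine metabolism 10 were higher and 0 lower, with a median of 1.15 (without PBS library 4, 1 was lower). Rrm1, the large subunit of ribonucleotide reductase, had 127, 138, 135 and 128 CPM in FP libraries, against 35.1, 37.2, 44.3 and 39.9 CPM in PBS libraries, with no overlap (1.75, SE 0.080, adjusted p = 7.3e-11). Tyms, whose enzyme makes thymidylate, was 3.62-fold higher, and Pfas, of purine synthesis, rose by 1.38 on the log2 scale. Serine supply was represented by Psat1, with 101 ± 9.21 CPM in FP libraries and 30.8 ± 7.10 CPM in PBS libraries (1.71, adjusted p = 2.1e-08), and by Shmt1 (1.17, adjusted p = 1.0e-08). The 3 members called lower were Tk2, the mitochondrial thymidine kinase (-0.76, adjusted p = 8.4e-07), Rrm2b, the p53-inducible small subunit of ribonucleotide reductase (-0.62, adjusted p = 0.00020; named after its values were seen), and Ctps2, of CTP synthesis (-0.51, adjusted p = 4.9e-06).

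Genes of ribosome assembly rose, whereas few ribosomal protein genes passed the test. Of 64 ribosome biogenesis genes 56 were called higher and 0 lower, with a median log2 change of 0.72. Ncl (nucleolin) had 993, 1018, 1138 and 1141 CPM in FP libraries, against 499, 519, 578 and 562 CPM in PBS libraries, with no overlap (0.99, SE 0.077, adjusted p = 3.7e-08). Rrp1b, a nucleolar protein, was 2.34-fold higher and Heatr1, which supports RNA polymerase I transcription, 1.76-fold. Of 77 cytosolic ribosomal protein genes, by contrast, 5 were called higher and 1 lower, with a median of 0.04. The higher members included Rps2 (1.88-fold), Rps12 (1.52-fold), Rpl14 (1.41-fold), Rpl7a (1.39-fold) and Rps27l (1.58-fold, named after its values were seen). Counts here rested on PBS library 3, without which 18 of 77 were called higher. They were also moved by PBS library 4, without which 8 were called higher, and by FP library 4 and PBS library 2, without either of which 3 were. Without PBS library 1, 2 were called lower. Rps27l was lost without FP library 3 or 4 or PBS library 2, and Rpl7a without FP library 4 or PBS library 1 or 2. Rps27, the member called lower, had 598, 506, 529.7 and 624 CPM in FP libraries, against 582, 732, 1016 and 1132 CPM in PBS libraries, values that overlapped (-0.62, SE 0.15, adjusted p = 0.0038), and its call was lost without FP library 2 or 3 or PBS library 3 or 4.

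Genes for making, folding and degrading proteins rose in several classes. Of 51 translation factor genes 31 rose and 0 fell, of 20 tRNA synthetase genes 18 rose and 0 fell, of 46 proteasome genes 35 rose and 0 fell, and of 42 chaperone genes 36 rose and 0 fell (1 without PBS library 1). Their median log2 changes were 0.46, 0.65, 0.55 and 0.85. Eif5a, the hypusine-bearing elongation factor, averaged 666 ± 46.7 CPM in FP libraries and 246 ± 56.6 CPM in PBS libraries (1.44, adjusted p = 7.8e-08). Hsp90ab1, an abundant cytosolic chaperone, had 1920.3, 1747, 2181 and 2195 CPM in FP libraries, against 741, 845, 1203 and 573 CPM in PBS libraries. The groups did not overlap although PBS libraries ranged widely (1.26, SE 0.16, adjusted p = 9.0e-06). Hspd1, the mitochondrial chaperonin, was 2.58-fold higher, and Xbp1, a factor of secretory protein folding that also marks plasma cells, 2.48-fold. Of the other plasma cell markers listed, Sdc1, Mzb1 and Tnfrsf17 were not among the genes of the table. Iars, a tRNA synthetase gene, was 1.59-fold higher (0.67, adjusted p = 3.7e-06). Autophagy and lysosome genes ran the other way, with 0 of 39 called higher and 11 lower, among them Map1lc3b (LC3B; -0.50, adjusted p = 0.00012). Without PBS library 3 these counts were 2 higher and 7 lower, and without PBS library 4, 1 was higher.

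In energy metabolism, the listed genes called higher with all libraries kept were nuclear. Of 72 nuclear genes of oxidative phosphorylation 42 were called higher and 0 lower, with a median log2 change of 0.47, and of 75 mitochondrial ribosomal protein genes 29 were higher and 0 lower, with a median of 0.38 (48 higher without PBS library 3). Atp5b, of the ATP synthase, averaged 632 ± 41.7 CPM in FP libraries and 329 ± 61.4 CPM in PBS libraries (0.94, adjusted p = 1.6e-06), and Atp5g1 was 2.31-fold higher. Of genes encoded by mitochondrial DNA, the 7 that were listed and tested gave 0 calls in edgeR's test. They also gave 0 at an unadjusted p under 0.05 and 0 with DESeq2. Their log2 changes lay between -0.19 and 0.34, and 5 were called higher without PBS library 4. That library held their highest sum, 14927 CPM, against 6567 to 9152 CPM in the other PBS libraries and 8495 to 10529 CPM in FP libraries. The count of 0 lower in edgeR's test for 11 lists of growth and replication genes was also 0 with DESeq2, and at an unadjusted p under 0.05 it was 1 for origin licensing, for checkpoint and repair, for one-carbon metabolism and for chaperones, and 0 for the other 7. Of 25 genes of the TCA cycle 13 were higher and 1, Idh1, lower (-0.72, adjusted p = 0.00030).

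Of 31 genes of glycolysis and the pentose phosphate pathway 17 were higher and 2 lower, and 2 members of the first steps moved in opposite directions. Hk2 (hexokinase 2) had 26.9, 27.9, 33.4 and 30.7 CPM in FP libraries, against 10.4, 11.3, 11.3 and 8.52 CPM in PBS libraries (1.52, SE 0.11, adjusted p = 2.7e-08). The glucose transporter gene Slc2a3 had 75.6, 68.6, 76.6 and 77.6 CPM in FP libraries, against 133, 146, 136 and 135 CPM in PBS libraries (-0.88, SE 0.063, adjusted p = 1.5e-08). Neither gene overlapped between the groups. The other member called lower was Pfkfb4, a regulator of fructose bisphosphate levels (-0.51, adjusted p = 0.0060), and its call was lost without FP library 2, 3 or 4 or PBS library 2 or 4.

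Many genes of lipid synthesis rose. Of 38 genes of cholesterol and fatty acid metabolism 18 were higher and 1 lower, with fatty acid synthase (Fasn) at 393 ± 17.6 CPM in FP libraries and 204 ± 26.9 CPM in PBS libraries (0.95, adjusted p = 2.2e-07) and acetyl-CoA carboxylase (Acaca) 1.82-fold higher. The member called lower was Abca1, which exports cholesterol, with 25.8, 16.6, 17.7 and 19.7 CPM in FP libraries, against 73.4, 54.8, 70.9 and 62.1 CPM in PBS libraries, all FP values below all PBS values (-1.71, SE 0.14, adjusted p = 6.8e-08). Library 1 of each group, where Abca1 was highest, also held the highest sum of red pulp macrophage markers (1161 CPM in FP, 1546 CPM in PBS). The part of such cells in the Abca1 values was not tested. Of 24 genes of amino acid supply and the ATF4 response 10 were higher and 1 lower. The arginine transporter gene Slc7a1 was 1.89-fold higher and Aldh18a1, of proline synthesis, 2.17-fold (adjusted p = 5.0e-09 and 3.9e-08). Slc38a9, the lysosomal arginine sensor, was the one called lower (-0.50, adjusted p = 4.7e-05), and without PBS library 2 the count was 2.

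**Figure D3:**
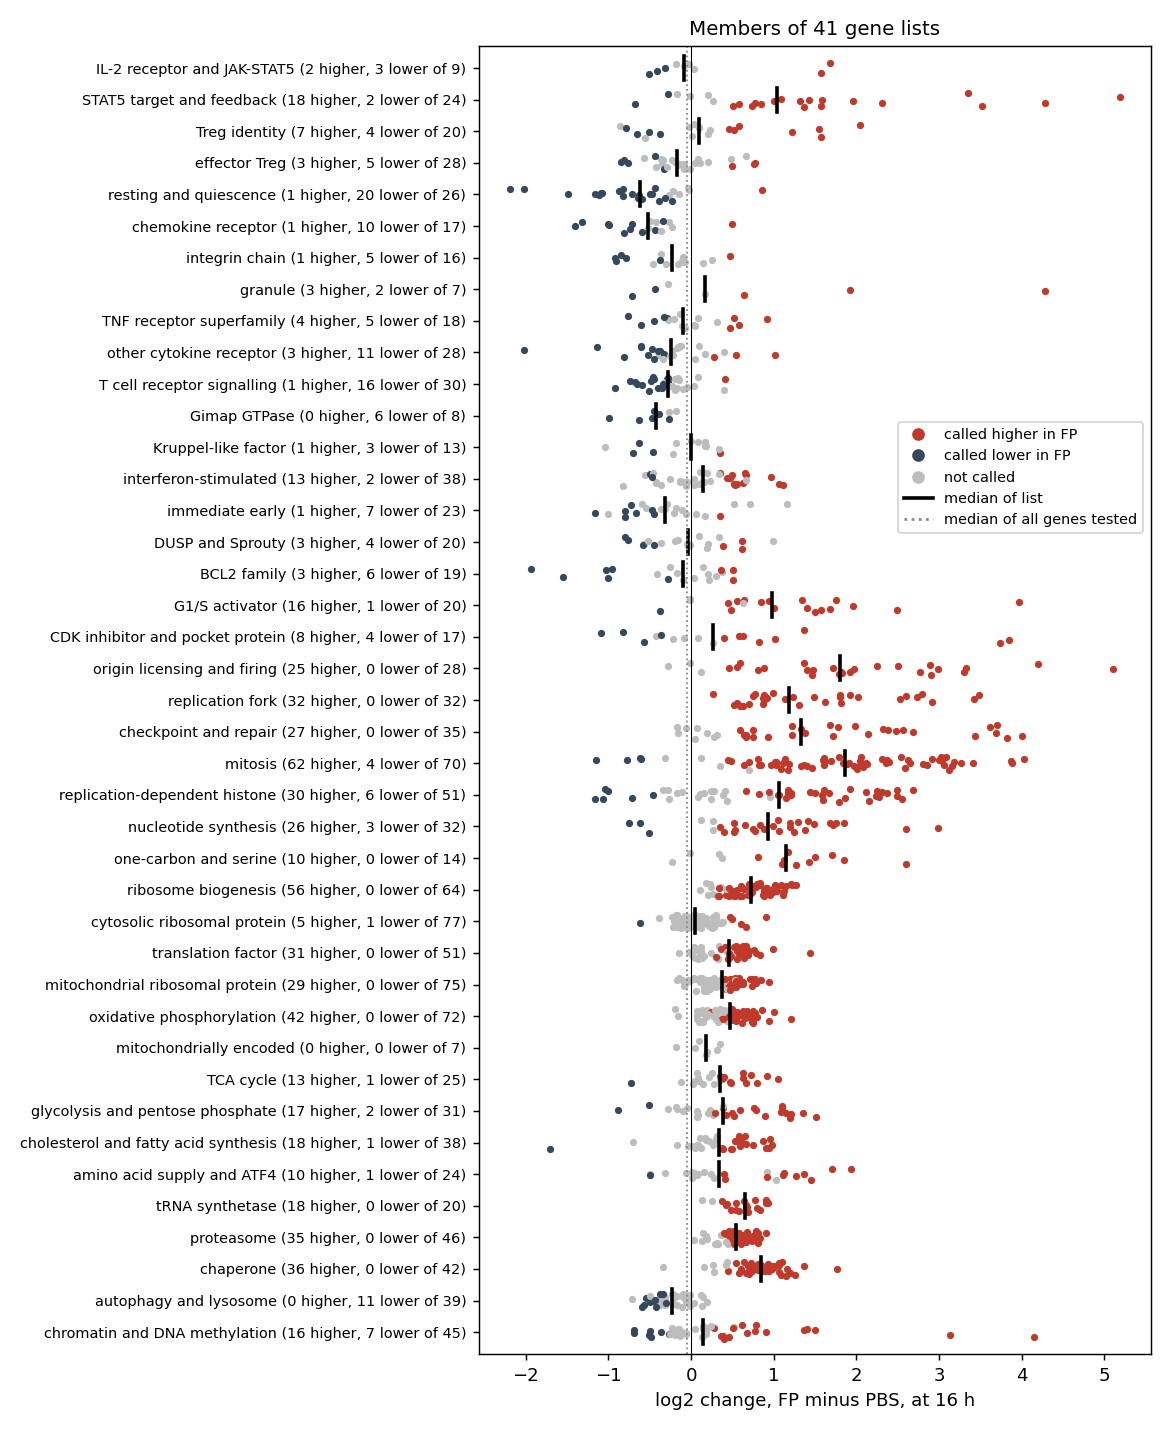
Members of 41 gene lists, FP against PBS at 16 h. The horizontal axis is the log2 change of FP minus PBS, each point is a gene (red called higher, blue called lower, grey not called), the black bar is the median of the list and the dotted line the median of all genes tested (-0.05). Origin licensing genes reach a median of 1.80 and mitosis genes 1.86, while resting and quiescence genes have a median of -0.61 and cytosolic ribosomal protein genes of 0.04.

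Genes of Treg identity moved in both directions. Of 20 such genes 7 were called higher and 4 lower, with a median log2 change of 0.09. Foxp3 had 673, 638, 639 and 647 CPM in FP libraries, against 532, 657, 588 and 434 CPM in PBS libraries, which overlapped (0.23, SE 0.095, adjusted p = 0.061), and it was called without PBS library 2 (log2 change 0.33). Ikzf2 (Helios) averaged 1036 ± 99.8 CPM in FP libraries and 1031 ± 88.2 CPM in PBS libraries, and Ctla4, the inhibitory receptor, 68.4 ± 2.33 CPM in FP libraries and 59.6 ± 6.53 CPM in PBS libraries (adjusted p = 0.96 and 0.13). Lrrc32 (GARP), which holds latent TGF-beta on the Treg surface, had 1037, 1044, 1100.3 and 1179 CPM in FP libraries, against 259.9, 293, 289 and 216 CPM in PBS libraries, with no overlap (2.04, SE 0.092, adjusted p = 6.1e-11). Its cargo gene Tgfb1, named after its values were seen, was 1.37-fold higher (adjusted p = 0.0010). The receptor gene Gpr83 was 2.92-fold higher and Capg, an actin-capping protein, 2.32-fold, while the costimulatory receptor genes Tnfrsf4 (OX40) and Tnfrsf18 (GITR) were 1.49-fold and 1.43-fold higher. All 4 members called lower encode surface molecules. Nrp1 (neuropilin-1) had 234, 231, 231 and 257 CPM in FP libraries, against 353, 344, 358 and 306 CPM in PBS libraries (-0.51, SE 0.075, adjusted p = 3.5e-05). The inhibitory receptor gene Lag3 averaged 9.69 ± 0.820 CPM in FP libraries and 16.7 ± 3.80 CPM in PBS libraries (-0.79, adjusted p = 0.00055). Tigit (-0.66, adjusted p = 0.0018) and the integrin gene Itgae (CD103; -0.37, adjusted p = 0.0043), named after their values were seen, completed the 4, and without FP library 3 or PBS library 3 neither was called (Itgae also not without FP library 2 or PBS library 1).

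Few markers of effector Tregs passed the test at this time. Of 28 effector Treg genes 3 were called higher, 5 lower and 20 not called, counts near the background shares. The 3 that rose were Anxa2 (1.70-fold), Ccr4, a chemokine receptor of skin and activated Tregs (1.41-fold), and Lgals1 (galectin-1; 1.70-fold, named after its values were seen). Klrg1, a receptor of differentiated Tregs, averaged 17.2 ± 2.15 CPM in FP libraries and 29.2 ± 6.27 CPM in PBS libraries. The lowest PBS value, in library 1, was close to the highest FP value of 19.4 CPM, and the groups did not overlap (-0.76, SE 0.14, adjusted p = 0.00033). Pdcd1 (PD-1) averaged 32.7 ± 0.784 CPM in FP libraries and 57.5 ± 15.2 CPM in PBS libraries (-0.81, adjusted p = 0.00040), and Rora 44.6 ± 1.97 CPM in FP libraries and 80.1 ± 2.37 CPM in PBS libraries (-0.84, adjusted p = 1.6e-06). Prdm1 (Blimp-1; -0.44, adjusted p = 0.0047) and Maf (-0.32, adjusted p = 0.0071), transcription factors named after their values were seen, were also lower. The Prdm1 call was lost without FP library 2, 3 or 4 or PBS library 1 or 2, and the Maf call without FP library 1, 3 or 4 or PBS library 1, 2 or 3 and with RLE scaling (log2 change -0.29), no filter, DESeq2 and the compared groups alone. The number called lower was 3 without FP library 3 or 4 or PBS library 1 or 2, and 8 without PBS library 4. Il10, the suppressive cytokine, averaged 2.93 ± 0.658 CPM in FP libraries and 5.32 ± 1.61 CPM in PBS libraries (-0.86, adjusted p = 0.013), and passed the threshold without PBS library 4 (log2 change -1.01). Icos was not called (adjusted p = 0.16).

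Granule genes were split. Gzmb rose as described above, Gzmc, another granzyme of the same cluster, was 3.78-fold higher at low levels, 3.67 ± 0.654 CPM in FP libraries and 0.961 ± 0.318 CPM in PBS libraries, and Nkg7, which also marks NK cells, was 1.56-fold higher. The 2 of 7 called lower were Fasl, the death ligand (-0.71, adjusted p = 0.00059), and the granule proteoglycan gene Srgn (-0.44, adjusted p = 0.0076), whose call was lost when any 1 library other than PBS library 1 or 2 was left out.

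Genes of the resting and central state fell in most cases: of 26, 20 were called lower and 1 higher, with a median log2 change of -0.61. Bcl6 (ENSMUSG00000022508, chromosome 16, 23965052 to 23988852), the repressor of follicular T cells that STAT5 signals are known to lower, had 10.8, 8.54, 8.50 and 8.58 CPM in FP libraries, against 39.2, 49.1, 46.2 and 32.4 CPM in PBS libraries. FP library 1 was the highest of its group, and all 4 lay far below the PBS libraries (-2.20, SE 0.12, adjusted p = 7.5e-10). Il7r (ENSMUSG00000003882, chromosome 15, 9505788 to 9530176), the receptor chain for the survival cytokine IL-7, had 65.2, 64.1, 65.8 and 43.8 CPM in FP libraries, against 375, 162, 228 and 207 CPM in PBS libraries. PBS library 1 was the highest, and the groups did not overlap (-2.02, SE 0.22, adjusted p = 1.6e-06). Pik3ip1, an inhibitor of PI3 kinase, averaged 42.8 ± 0.827 CPM in FP libraries and 119.6 ± 29.0 CPM in PBS libraries (-1.48, adjusted p = 3.2e-07). The transcription factor gene Tcf7 (TCF-1) averaged 232 ± 12.6 CPM in FP libraries and 488 ± 82.0 CPM in PBS libraries (-1.07, adjusted p = 2.6e-07), and the antiproliferative gene Btg2 134 ± 33.0 CPM in FP libraries and 300.2 ± 51.9 CPM in PBS libraries (-1.16, adjusted p = 1.1e-05). Igfbp4 was the member called higher (1.80-fold, adjusted p = 0.00023). Klf2, a master factor of quiescence and lymph node homing, averaged 232 ± 26.2 CPM in FP libraries and 270.0 ± 61.5 CPM in PBS libraries and was not called (-0.22, adjusted p = 0.23).

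Several of the largest decreases were in genes outside these groups. Mturn averaged 17.7 ± 1.72 CPM in FP libraries and 58.9 ± 3.67 CPM in PBS libraries, with no overlap (-1.74, SE 0.080, adjusted p = 7.3e-11). Klhl24, a ubiquitin ligase adaptor, and Neurl3, a ubiquitin ligase, fell to 0.324-fold and 0.328-fold of the PBS level (adjusted p = 1.4e-10 and 2.1e-10). Frat1, an inhibitor of GSK3 in Wnt signalling, fell to 0.313-fold and Kcnip2, a potassium channel partner, to 0.322-fold (adjusted p = 7.8e-07 and 1.2e-09).

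More genes of receptors that guide Tregs through tissues were lower than higher. Of 17 chemokine receptor genes 10 were called lower and 1, Ccr4, higher, with a median log2 change of -0.52. S1pr1, needed for exit from lymphoid organs, had 254, 228, 225 and 229 CPM in FP libraries, against 367, 344, 445 and 379 CPM in PBS libraries (-0.71, SE 0.081, adjusted p = 2.8e-06). The lymph node homing receptor gene Ccr7 was lower by a smaller amount. Ccr7 averaged 131 ± 11.1 CPM in FP libraries and 177 ± 27.5 CPM in PBS libraries (-0.43, adjusted p = 0.0017), a call lost without FP library 3 (log2 change -0.38). Of 16 integrin genes 5 were lower and 1 higher, and without FP library 2 or 3 or PBS library 1 or 3 the number lower was 3 (without PBS library 3 the number higher was 2). Itga4, the alpha 4 chain of VLA-4, had 442, 489, 459.8 and 449.9 CPM in FP libraries, against 909, 854, 766 and 928 CPM in PBS libraries, with no overlap (-0.91, SE 0.075, adjusted p = 7.8e-08). Itga6, the laminin receptor chain, was the one higher (1.39-fold, adjusted p = 1.0e-05).

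Genes that relay the T cell receptor signal leaned downward. Of 30 such genes 16 were called lower and 1 higher, with a median log2 change of -0.29. Without FP library 3 the number lower was 10, and without PBS library 3 or 4 the number higher was 2. Cd3g had 263, 244, 233 and 250.2 CPM in FP libraries, against 304, 369, 449 and 438 CPM in PBS libraries (-0.66, SE 0.099, adjusted p = 5.4e-05). Lowered regulators included the phosphatase gene Ptpn22 (-0.74, adjusted p = 5.7e-07) and the diacylglycerol kinase gene Dgka, which limits signalling, with 771 ± 34.8 CPM in FP libraries and 1095 ± 36.5 CPM in PBS libraries (-0.51, adjusted p = 1.6e-05). The factor gene Nfatc2 was the member that rose (1.32-fold, adjusted p = 0.0018). Of 8 Gimap genes, small GTPases of lymphocyte survival, 6 were lower and 0 higher (also 0 at an unadjusted p under 0.05 and with DESeq2), and 3 were lower without PBS library 3. Gimap6 averaged 333 ± 29.0 CPM in FP libraries and 661 ± 60.6 CPM in PBS libraries (-0.99, adjusted p = 1.3e-07). Of 23 immediate early genes, which respond to stimulation and to handling of cells, 1 was higher and 7 lower, and 11 were lower without FP library 1. Of 20 genes of the DUSP and Sprouty families, which restrain MAP kinase signals, 3 were higher and 4 lower, with 2 to 6 lower when 1 library was left out. Dusp2 averaged 93.6 ± 5.45 CPM in FP libraries and 163 ± 32.2 CPM in PBS libraries (-0.80, adjusted p = 1.6e-05), while Dusp5 averaged 88.5 ± 6.15 CPM in FP libraries and 57.9 ± 8.94 CPM in PBS libraries (0.61, adjusted p = 6.0e-05). Of 13 Kruppel-like factor genes 3 were lower and 1 higher. Klf3 averaged 243 ± 6.65 CPM in FP libraries and 397 ± 34.6 CPM in PBS libraries (-0.71, adjusted p = 5.6e-07), and Klf7 and Klf13 were lower by smaller amounts (-0.63 and -0.46). Klf16 was the higher one (0.34, adjusted p = 0.0090), a call lost when any 1 library other than FP library 2 or PBS library 3 was left out. Of 45 chromatin and DNA methylation genes 16 were higher and 7 lower, with a median of 0.14. Cbx5, a heterochromatin protein, averaged 278 ± 21.7 CPM in FP libraries and 105 ± 7.68 CPM in PBS libraries (1.41, adjusted p = 4.8e-10), whereas the histone demethylase gene Kdm5b was lower (-0.69, adjusted p = 2.1e-07), as was Tet1, whose enzyme oxidises methylcytosine (-0.69, adjusted p = 1.7e-05).

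Among 28 other cytokine receptor genes 11 were lower, Il7r among them, and 3 were higher. The 3 were the receptor chain genes Il12rb2 (2.02-fold, adjusted p = 0.00098), Il10ra (1.45-fold, adjusted p = 0.00019) and Il4ra (1.21-fold, adjusted p = 0.0034; named after its values were seen), the last of which was lost without FP library 1 or 4. Of 18 TNF receptor genes 4 were higher and 5 lower, with 3 lower when FP library 3 was left out. Interferon-stimulated genes were partly raised: 13 of 38 were higher and 2 lower, with a median of 0.14. Isg20, an exonuclease, had 37.2 to 52.0 CPM in FP libraries and 15.8 to 25.4 CPM in PBS libraries (1.06, adjusted p = 6.3e-06). The 2 lower members were Ifit2 (-0.49, adjusted p = 0.0011) and Usp18 (-0.48, adjusted p = 0.0012). Without FP library 1 the number lower was 6, without PBS library 1 it was 4, and without FP library 3 it was 1.

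More cell death genes were called lower than higher. Of 19 BCL2 family genes 6 were called lower (31.6%) and 3 higher (15.8%; 1 higher without FP library 4 or PBS library 1). The share called higher was near the background of 14.4%. Lower members included genes of pro-apoptotic BH3-only proteins. Bcl2l11 (Bim) had 48.1, 40.6, 46.7 and 41.1 CPM in FP libraries, against 119, 80.2, 89.9 and 70.5 CPM in PBS libraries (-1.03, SE 0.13, adjusted p = 1.0e-05). Bbc3 (Puma) had 6.44, 3.41, 6.05 and 4.26 CPM in FP libraries, against 19.0, 13.7, 16.3 and 10.1 CPM in PBS libraries (-1.55, SE 0.21, adjusted p = 1.5e-05). Neither overlapped between the groups. Bmf, named after its values were seen, averaged 1.70 ± 0.661 CPM in FP libraries and 6.54 ± 2.93 CPM in PBS libraries (-1.94, adjusted p = 0.00022). Bcl2, the protective founder of the family, rose 1.42-fold (adjusted p = 6.3e-05), in contrast to Mcl1 and to Bcl2a1b, another protective member, one of several near-identical copies (-0.96, adjusted p = 9.6e-05). Bak1, a pro-apoptotic effector, was called higher (0.50, adjusted p = 0.0043), a call lost without FP library 4 or PBS library 1.

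Among the most abundant RNAs outside protein-coding genes, Rn7sk, Rpph1, Rmrp and Malat1 were lower, while 6 of 71 genes annotated as miscellaneous RNA (8.45%) and 7 of 143 small nuclear RNA genes (4.9%) were called lower, below the background. Rn7sk (7SK), which holds back the elongation factor P-TEFb, had 11224, 9989, 10537 and 11535 CPM in FP libraries, against 13337, 17334, 27332 and 25943 CPM in PBS libraries. The PBS values spread over a wide range, highest in libraries 3 and 4, and did not overlap with FP (-0.96, SE 0.18, adjusted p = 0.00043). Rpph1, the RNA of RNase P, averaged 4001 ± 222 CPM in FP libraries and 7295 ± 2045 CPM in PBS libraries (-0.87, adjusted p = 0.00049), and Rmrp, the RNA of RNase MRP, 847 ± 83.1 CPM in FP libraries and 1762 ± 744 CPM in PBS libraries (-1.06, adjusted p = 0.0017). The Rmrp call was lost when FP library 1 and PBS library 3 were both left out (-0.73). Malat1, a nuclear lncRNA, averaged 11357 ± 316 CPM in FP libraries and 16682 ± 1046 CPM in PBS libraries (-0.55, adjusted p = 0.00011). Actb (beta-actin), often used as a constant, averaged 10809 ± 401 CPM in FP libraries and 6738 ± 1735 CPM in PBS libraries (0.68, adjusted p = 0.00070).

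FP was also set against IL-2 at the same time, a comparison that shares the 4 FP libraries with the one above. Of the genes tested, 2940 were higher in FP than in IL-2 libraries (16.8%) and 2604 lower (14.9%). Il2ra and most STAT5 targets were higher in FP than in IL-2 libraries, while in the receptor and JAK-STAT list 2 of 9 were higher and 3 lower. Il2ra averaged 1955 ± 87.7 CPM in FP libraries, 611 ± 24.8 CPM in IL-2 libraries and 657 ± 42.5 CPM in PBS libraries, and was 1.68 higher on the log2 scale in FP than in IL-2 libraries (adjusted p = 7.5e-11). Cish averaged 546 ± 30.5 CPM in FP, 170.0 ± 12.1 CPM in IL-2 and 203 ± 33.5 CPM in PBS libraries. In the STAT5 target list 19 of 24 genes were higher in FP than in IL-2 libraries and 3 lower, and in ribosome biogenesis all 64 were higher.

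Mki67 and Hist1h1b had IL-2 means between those of FP and PBS. Mki67 averaged 174 ± 14.3 CPM in FP, 96.8 ± 23.4 CPM in IL-2 and 42.1 ± 3.84 CPM in PBS libraries. Hist1h1b averaged 28.1 ± 4.09 CPM in FP, 17.1 ± 4.85 CPM in IL-2 and 5.40 ± 1.99 CPM in PBS libraries, and missed the threshold between FP and IL-2 (0.71, adjusted p = 0.011), which it passed with RLE scaling, no filter on low counts, DESeq2, the replicate block (adjusted p = 0.00042) and the compared groups alone, and without IL-2 library 3. Of 51 replication-dependent histone genes 3 were higher in FP than in IL-2 libraries and 4 lower, and of 70 mitosis genes 46 were higher and 3 lower. Whether these counts differ from those against PBS was not tested. Rn7sk stood at 10821 ± 694 CPM in FP, 13239 ± 1629 CPM in IL-2 and 20987 ± 6750.1 CPM in PBS libraries, and no call between FP and IL-2 (-0.29, adjusted p = 0.20). Foxp3 was at 649 ± 16.0 CPM in FP libraries and 540.1 ± 11.5 CPM in IL-2 libraries (0.27, adjusted p = 0.032).

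The place of 16 h in the course of the response was tested with FP and PBS libraries of 1.5 h and 72 h, each time keeping its own PBS libraries, over 17723 genes. Between 1.5 h and 16 h the FP effect differed for 846 genes (4.77%), larger at 16 h for 592 and smaller for 254. It was larger at 16 h than at 72 h for 1209 genes (6.82%) and smaller for 1381 (7.79%), where larger means a more positive log2 change. STAT5 targets were already up at 1.5 h with list medians of 1.03 at 1.5 h, 1.08 at 16 h and 1.35 at 72 h. Il2ra had log2 changes of 1.81, 1.61 and 1.73 at these times in the joint fit, and neither difference passed the test (adjusted p = 0.41 against 1.5 h and 0.54 against 72 h). Ribosome biogenesis was up early and fell back, with medians of 0.69, 0.76 and 0.31, and 27 of 64 genes had a larger effect at 16 h than at 72 h.

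By list medians, replication genes had their gain between 1.5 h and 16 h, and mitosis genes a further gain by 72 h. Histone genes gained in both intervals, more between 16 h and 72 h. Origin licensing genes had medians of 0.02, 1.84 and 1.64, with 22 of 28 different between 1.5 h and 16 h, all of them larger at 16 h, and 1 smaller at 16 h than at 72 h. Mcm10 had effects of -0.58, 5.15 and 4.50, a gain of 5.73 between 1.5 h and 16 h (SE 0.38, adjusted p = 2.0e-12) and no call against 72 h (adjusted p = 0.15). Mitosis genes had medians of -0.03, 1.88 and 4.26, with 48 of 69 different between 1.5 h and 16 h, all larger at 16 h, and 59 smaller at 16 h than at 72 h. Mki67 followed that course, with effects of -0.00, 2.09 and 4.67. Replication-dependent histone genes had medians of 0.14 at 1.5 h and 5.06 at 72 h, with the 16 h median between them. Of 51, 4 passed the test as larger at 16 h than at 1.5 h, and 49 as smaller at 16 h than at 72 h. The low count against 1.5 h does not show that the other effects were equal.

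Effector and interferon genes had larger effects at 72 h than at 16 h. Effector Treg genes had medians of 0.16, -0.13 and 1.20, with 17 of 28 smaller at 16 h than at 72 h, and 29 of 38 interferon-stimulated genes were smaller at 16 h than at 72 h. Klrg1, called lower at 16 h in the 16 h table, had effects of -0.23, -0.72 and 1.53, and the difference between 16 h and 72 h was -2.25 (SE 0.42, adjusted p = 0.00017). Gzmb had effects of 0.58, 4.32 and 8.03. Bcl6 had its lowest effect estimate at 16 h, with effects of -1.26, -2.16 and -1.25, and both differences passed the test (adjusted p = 0.0094 against 1.5 h and 0.0043 against 72 h). The call against 1.5 h was lost without FP library 2, 3 or 4 or PBS library 1, 2 or 3 of 16 h, and that against 72 h without FP library 2 or PBS library 2 or 3. Marker levels of other cells also differed between times: red pulp macrophage markers had a median effect of 0.26 at 1.5 h, -0.47 at 16 h and -4.19 at 72 h, and their part in the 72 h values was not tested.

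**Figure D4:**
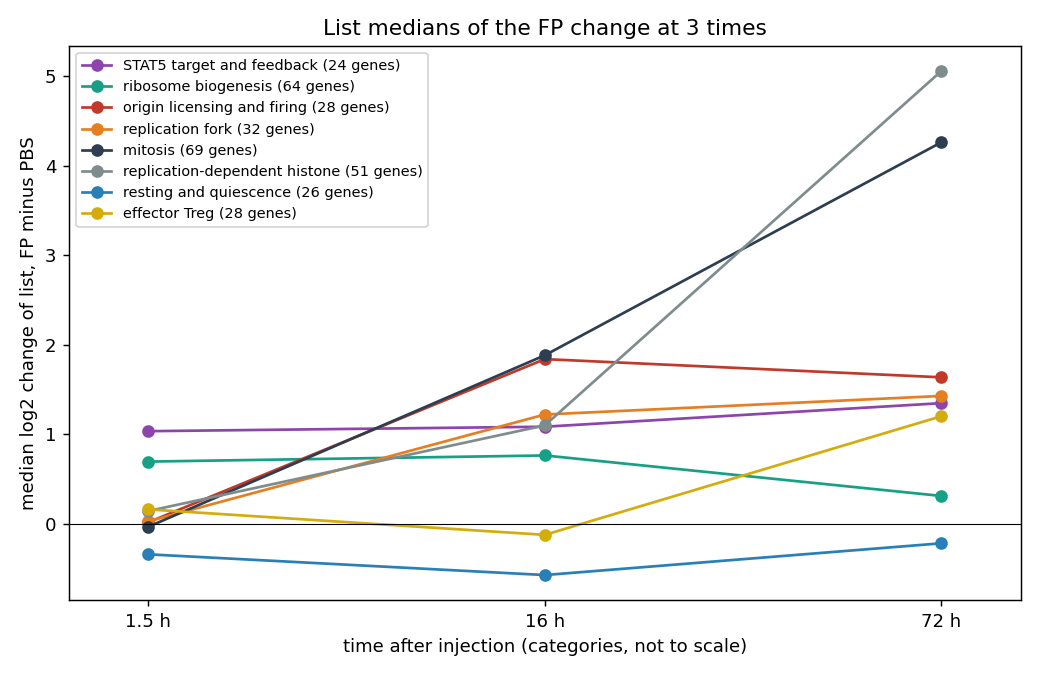
Median log2 change of FP minus PBS over the members of 8 gene lists at 1.5 h, 16 h and 72 h, from the joint fit. The horizontal axis gives the times as categories, not to scale, and lines join the medians of a list. Origin licensing genes go to 1.84 at 16 h and 1.64 at 72 h, mitosis genes to 1.88 and 4.26, histone genes to 5.06 at 72 h, and effector Treg genes to -0.13 and 1.20.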

How the data were processed

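Tregs sorted from mouse spleen were profiled by total RNA sequencing after removal of ribosomal RNA, from 25 ng of RNA per library on a NextSeq 500, per the labels' protocols. The deposited values are counts of reads per gene, and, per the submitters' processing notes, the authors used STAR 2.5.0 on GRCm38 and featureCounts 1.5.0 with GENCODE M13 to obtain them. A check of the values showed that each gene kept by the authors passes 0.5 CPM in 3 or more columns. Strandedness of the counting is not given in the sources used here, so genes that overlap another on the opposite strand are uncertain, among the genes named Foxp3, Jak1, Stat5a, Cish, Ccnd2, Pim1, Bcl6, Cdk6, Rbl2, Lin37, E2f7, E2f8, Cdkn1a, Orc4, Pole, Chaf1a, Lig1, Rad54b, Cdc25b, Shmt1, Rrm2b, Rrp1b, Heatr1, Rps2, Hspd1, Map1lc3b, Slc38a9, Ikzf2, Tnfrsf18, Anxa2, Rora, Maf, Pik3ip1, Mturn, Itga4, Dgka, Dusp5, Klf3, Klf7, Il12rb2, Il4ra, Usp18, Bcl2, Bak1, Rmrp and Malat1. Reads of near-identical genes (histones, granzymes, ribosomal proteins) can fall to either copy. 55 of the gene identifiers in the table found no name in the GENCODE M21 annotation.

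Counts were fitted in R 4.3.3 by edgeR 4.0.16, using limma 3.58.1, TMM scaling, filterByExpr and a mean per group over all 12 libraries of the 16 h table. These were tested with 2-sided quasi-likelihood F tests and Benjamini-Hochberg adjustment over all genes tested. The threshold of 0.01 is the authors' false discovery rate. The SE of a log2 change is its size divided by the square root of F. Common biological variation was 11.2%. Depth per library was 15149790 to 17575151 reads in FP and PBS libraries and 13882162 to 16282712 reads in IL-2 libraries. Libraries of a group differed with a chi-square of 2.91 to 33.6 per degree of freedom, so none were counted as duplicates. The effects at 1.5 h, 16 h and 72 h were fitted jointly over 34 libraries, with both sequencer runs of a 72 h library summed. Correlations of deviations between FP and PBS libraries of the same number were 0.12, -0.02, 0.11 and 0.01, so numbers were not taken to pair libraries. Between FP and IL-2 libraries they were 0.25, 0.12, 0.06 and -0.07. Immediate early genes summed highest in library 1 of each group, with 2673 CPM in FP, 3217 CPM in IL-2 and 3109 CPM in PBS. What the libraries numbered 1 had in common was not tested.

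The genes named were those with the largest changes in log2 or CPM (called, groups apart, mean of 5 CPM or more), up to 4 called members of each of 49 gene lists with the smallest p, up to 2 members that ran against their list, and a panel of signalling and state genes. Genes outside that rule are marked in the text, and a few genes within it are not reported here. The lists, members and rules were chosen with earlier results of these data known. Promoter windows are those of RefSeq on GRCm38.p6. Procedures were tested on simulated data. Alternatives tried were DESeq2 1.42.0, RLE scaling, no filter on low counts, a replicate block, a fit of the compared groups alone, each library left out, a 1.5-fold test threshold (glmTreat) and an adjusted p below 0.05.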

Additional observations from a re-analysis of the deposited data

Results flagged for a closer look

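Among 380 groups of 4 values tested with Dixon's criterion, 19 held 1 library far from the other 3 (5%), and chance alone marks about 1 in 20. They fell on FP library 1 (9), FP library 4 (4), PBS library 3 (4) and PBS library 4 (2). In FP library 1, Drc1 was high at 36.8 CPM, as were Bcl6 at 10.8 CPM, Ccr7 at 147 CPM, S1pr1 at 254 CPM, Mrc1 at 77.3 CPM, Klf13 at 369.8 CPM, Cdc25b at 46.5 CPM and the summed myeloid markers at 349 CPM, while Hist2h2be was low at 2.35 CPM. In FP library 4, Gzmb at 98.4 CPM and Nrp1 at 257 CPM were high, and Il7r at 43.8 CPM and Dnmt1 at 471 CPM were low. In PBS library 3, Gzmb at 7.86 CPM, Drc1 at 5.64 CPM and Anxa2 at 28.4 CPM were high and Mturn at 53.5 CPM was low. In PBS library 4, Rrm2b at 46.0 CPM was high and Il10ra at 81.8 CPM was low.

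The FP effect at 16 h differed from that at another time, by a test of the difference itself, for several panel genes. Against 1.5 h the log2 difference was 3.74 for Gzmb (SE 0.48, adjusted p = 1.1e-06), 2.09 for Mki67 (SE 0.23, adjusted p = 7.0e-08), 5.73 for Mcm10 (SE 0.38, adjusted p = 2.0e-12) and -0.89 for Bcl6 (SE 0.23, adjusted p = 0.0094), a call lost without FP library 2, 3 or 4 or PBS library 1, 2 or 3 of 16 h. Against 72 h it was -3.71 for Gzmb (SE 0.46, adjusted p = 6.3e-07), -2.59 for Mki67 (SE 0.24, adjusted p = 5.3e-09), -0.91 for Bcl6 (SE 0.23, adjusted p = 0.0043, lost without FP library 2 or PBS library 2 or 3) and -2.25 for Klrg1 (SE 0.42, adjusted p = 0.00017).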

How the results depend on the processing

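The 5022 genes called between FP and PBS became 4956 with RLE scaling (2755 higher, 2201 lower), 4933 with no filter on low counts (2853 higher, 2080 lower), 5346 with DESeq2 (2986 higher, 2360 lower), 3922 with the compared groups alone and 3992 to 5457 with 1 library left out. A fit with the replicate number as a block called 5050. By number, the FP library correlated best with its own PBS library for 2 of the 4 numbers. A test against a 1.5-fold threshold called 946 genes (605 higher and 341 lower), since many changes were small, and an adjusted p below 0.05 called 7162, of which 3789 were lower. Of 182 genes followed across the fits, 86 lost their call at the 1.5-fold threshold and 96 kept their status. Among the 86 were Myc, Pim1, Socs3, Klrg1, Pdcd1, Lag3, Nrp1, Cd3g, S1pr1, Bcl2 and Actb. By list, the number higher became 21 for ribosome biogenesis, 14 for chaperones, 3 for oxidative phosphorylation and 1 for tRNA synthetases. It became 0 for proteasome and mitochondrial ribosomal protein genes, and the number of autophagy and lysosome genes lower became 0. Between FP and IL-2 the main count of 5544 became 5663 with the block, 7187 with the compared groups alone and 4375 to 5305 with 1 library left out. For the effect against 1.5 h, 846 became 1053 with the block and 674 to 881 with 1 library left out, and against 72 h 2590 became 3368 with the block and 2207 to 2607.

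Directions turned for 3 genes that were not called in any of these fits. Il2rg (-0.02) was 0.015 with RLE scaling, 0.028 with no filter, 0.017 with DESeq2, 0.090 without FP library 1 and PBS library 3, and -0.093 to 0.16 with 1 library left out. Orc3 (-0.02) was 0.021 with RLE scaling, 0.033 with no filter, 0.023 with DESeq2, 0.0025 with the compared groups alone, 0.0023 without FP library 1 and PBS library 3, and -0.073 to 0.12 with 1 library left out. Ikzf2 (0.01) was -0.045 to 0.059 with 1 library left out. The scalings moved the median log2 change over all genes by less than 0.1, and DESeq2 also called Il10. Among genes named here, RLE scaling lost the calls of Jak3, Mcl1, Maf, Lin37 and Srgn. Using no filter lost these and Tfdp2, Itgae and Pfkfb4. DESeq2 lost Jak3, Maf, Lin37 and Lyz2, and the block lost Lin37. The compared groups alone lost Jak3, Mcl1, Ccr7, Tfdp2, Rps27, Prdm1, Maf, Lin37, Rpl7a, Rps27l, Srgn, Pfkfb4, Lyz2, Itga2b, Klf16 and Bak1. The alternative without both libraries was chosen after seeing the data. The cause of these differences was not tested. Genes near 1 CPM, such as Cdkn1a in PBS libraries, are limited by depth.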
